A study of Homo sapiens with 2 samples.

Results

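The 10 genes described here are transcriptional targets of YAP and TEAD together with NT5E, which encodes the surface enzyme CD73. They were chosen by name, as CTGF, CYR61, ANKRD1, AMOTL1, AMOTL2, AJUBA, LATS2, CRIM1, F3 and NT5E, and 10 of 58735 genes in the deposited table matched. Expression was measured by RNA sequencing in U87MG, an established human glioblastoma line labelled as brain tissue, grown as glioma spheres for a week under stem cell conditions. One library came from cells infected with a TRIP13-shRNA lentivirus, and the other from cells infected with the control virus pGIPZ-CTRL. Both kinds of cells were puromycin-selected stable clones, and the number of clones behind each library is not given in the sources used here. Each group held 1 library, so nothing below could be tested against replicates, and each difference describes these 2 libraries.

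YAP and its relative TAZ (gene WWTR1) are transcriptional coactivators that have no DNA-binding domain of their own and act through the TEAD proteins. The Hippo kinase MST activates the kinase LATS, which phosphorylates YAP and TAZ and keeps them in the cytoplasm. When that phosphorylation is low, as in spread, stretched or sparse cells, YAP and TAZ enter the nucleus and switch on secreted matricellular proteins, adhesion and coagulation genes, and also Hippo components that feed back on them. CD73 turns extracellular AMP into adenosine, is abundant on many glioblastoma cells and has been reported as a target of this pathway.

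The library labelled TRIP13 shRNA held 19903836 reads assigned to genes and the control library 18871063. TRIP13 itself, an AAA+ ATPase that remodels MAD2, stood against the label at 23.1 FPKM in the library labelled TRIP13 shRNA, against 11.9 FPKM in the control library, so an exchange of the 2 labels cannot be told apart from the design as labelled. An exchange would turn every direction below, and both libraries, the control library included, are named only by their labels. FPKM, the authors' unit, relates fragments to gene length and a library total. Of 8 astroglial and glioma markers, VIM and CD44 were abundant (427 and 112 FPKM in the library labelled TRIP13 shRNA, 442 and 115 FPKM in the control library). GFAP (0.119 and 0.392 FPKM), SOX2 (1 and 2 reads), PROM1 (1 and 5 reads) and S100B (4 and 0 reads) were near 0 in both. The 10 markers of immune, endothelial, neuronal and oligodendrocyte cells summed to 0.467 and 1.54 FPKM, and 4 and 2 of them had no read. PTPRC had 0 and 11 reads and CDH5 0 and 6, while PECAM1 had 1 and 45 reads and VWF 6 and 75. Their part in the differences below was not tested. In bulk RNA, fewer cells expressing a gene and less RNA per cell cannot be told apart.

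The targets went in different directions. Differences are given as the log2 ratio, log2 of (FPKM + 1) in the library labelled TRIP13 shRNA over (FPKM + 1) in the control library, and a gene is called when this is 1 or more, or -1 or less. NT5E, CTGF and F3 were called lower and CRIM1 was called higher, while AMOTL2 (0.82) and CYR61 (0.72) were higher but below the limit. AMOTL1, LATS2 and AJUBA lay near 0, and ANKRD1 was barely expressed. Thus 3 members were called lower, set beside 4.19% of the 10671 protein-coding genes whose FPKM averaged at least 1, and 1 was called higher, set beside 2.17%. Of the 10 members 9 passed that minimum, and ANKRD1 did not. The median log2 ratio of the 9 was -0.11, and that of all genes tested was 0.12. No count or median here has a test. Among the astroglial and glioma markers 4 passed the minimum, with a median log2 ratio of -0.50. OLIG2 was called lower (0.339 and 2.72 FPKM), which ends with a pseudocount of 5 at -0.53, and NES (2.21 and 5.23 FPKM) stood at -0.96 and passed -1 in 6 of 8 alternative settings. Called genes among these 10671 protein-coding genes split into 34.2% higher and the rest lower. This share was 22.5% after rescaling to TPM, where 12183 genes passed the minimum. It was 19.7% with the median ratio set to 1, where 10674 passed.

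**Figure D1:**
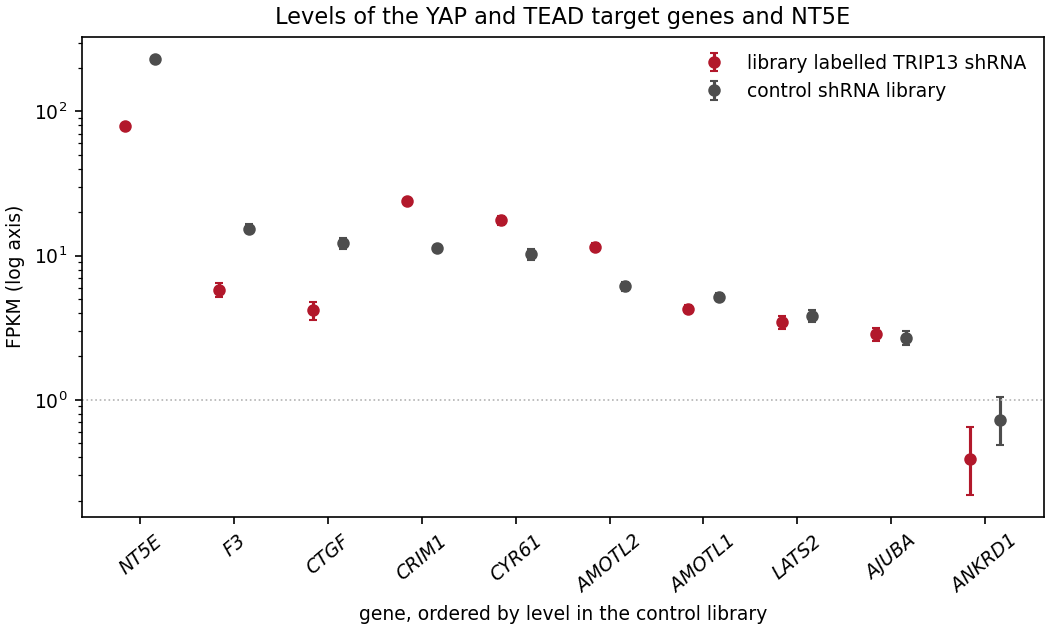
FPKM of each member (log axis) in the library labelled TRIP13 shRNA (red) and the control shRNA library (grey), with exact 95% Poisson intervals of the reads, which cover counting error only. NT5E is the most abundant member in both libraries and ANKRD1 lies below the dotted line at 1 FPKM in both.

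**Figure D2:**
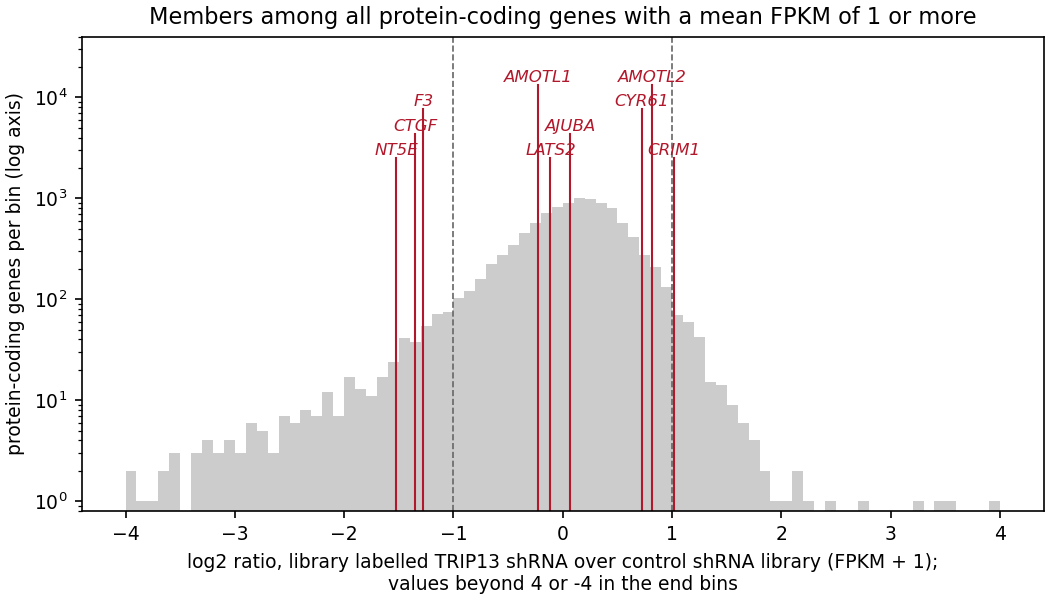
Log2 ratios of the 9 members past the FPKM minimum (red lines) over the histogram of 10671 protein-coding genes, counted on a log axis; dashed lines mark log2 ratios of -1 and 1. NT5E, CTGF and F3 lie left of -1 and CRIM1 lies just right of 1.

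CTGF and CYR61 are secreted matricellular proteins of the CCN family that bind integrins, and both are standard readouts of YAP activity. They went opposite ways. CTGF (ENSG00000118523, hg38 chromosome 6, 131948176 to 131951373, minus strand) had 4.17 FPKM from 189 reads in the library labelled TRIP13 shRNA, against 12.2 FPKM from 551 reads in the control library. It was 2.92-fold lower (95% counting interval 2.47 to 3.46), with a log2 ratio of -1.35. Only 224 of the 10671 genes had a lower log2 ratio. In the order of levels CTGF ranked 7465 of 10671 genes in the library labelled TRIP13 shRNA, against 3559 in the control library. CYR61 (ENSG00000142871, chromosome 1, 85580761 to 85583962, plus strand) had 17.6 FPKM from 836 reads in the library labelled TRIP13 shRNA, against 10.2 FPKM from 487 reads in the control library. Its ratio was 1.72 (1.53 to 1.92) and its log2 ratio 0.72, short of the size rule.

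The ratio of CTGF to CYR61 within a library does not depend on the library total. It was 0.237 in the library labelled TRIP13 shRNA, against 1.19 in the control library, so the ratio was 0.200 times as high (exact conditional interval 0.163 to 0.245). In the control library CTGF was thus the more abundant of the pair per length, and in the library labelled TRIP13 shRNA CYR61 was. Of the exon length of CTGF, 8.34% is shared with the antisense gene AL133346.1, which had 5 reads in both libraries.

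Promoter windows from RefSeq (GRCh38.p14, 250 bases before to 50 after a start) were found for 8 of 10 members, with 10 starts in all, and not for CYR61 or CRIM1. They were searched on both strands for the TEAD motif GGAATG, which reads CATTCC on the other strand, and the AP-1 motif TGANTCA, since AP-1 often occupies the same enhancers as TEAD. No match of one motif overlapped a match of the other. Of 35116 such windows, 14.0% held at least 1 TEAD motif, 1.37% at least 2 and 0.128% at least 3, and 7.71% held an AP-1 motif. Among the members 5 of 10 windows held a TEAD motif. A match is a description of the sequence and not evidence of binding in these cells. The absence of a match covers these windows alone, and enhancers were not searched. The RefSeq starts can differ from the 5' ends of the gene spans given here, so bases before a start can lie inside a span.

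CTGF is shown because it held the highest number of TEAD motifs of the 8 members with a window. Its 3 motifs lie at -169 to -164, -104 to -99 and -95 to -90 from the start. The stretch is the 250 bases before the start, chr6:131951373-131951622, minus strand, with motifs in capitals.
CTGF: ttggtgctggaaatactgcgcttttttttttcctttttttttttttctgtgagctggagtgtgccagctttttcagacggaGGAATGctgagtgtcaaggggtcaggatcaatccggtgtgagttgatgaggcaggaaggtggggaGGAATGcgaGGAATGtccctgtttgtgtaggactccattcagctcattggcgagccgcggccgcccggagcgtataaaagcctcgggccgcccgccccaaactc

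ANKRD1 encodes a cardiac ankyrin repeat protein that shuttles between sarcomere and nucleus, and it is strongly induced by YAP in many cell types. Here it was close to the detection limit in both libraries (ENSG00000148677, chromosome 10, 90912096 to 90921276, minus strand). It had 0.391 FPKM from 15 reads in the library labelled TRIP13 shRNA, against 0.730 FPKM from 28 reads in the control library. The ratio of 0.536 had a counting interval of 0.266 to 1.04, which includes 1, but this ratio carries the difference in depth between the libraries. Scaled to the library's own reads, the ratio was 0.508 (0.252 to 0.984), which excludes 1 narrowly. Whether the interval included 1 thus depended on the scaling, and it covers counting error only. Its relatives ANKRD2 (6 and 3 reads) and ANKRD23 (18 and 27 reads) were as low. Its window is shown because it held 2 TEAD motifs and 1 AP-1 motif, so a window with several motifs belonged to the member with the lowest level. The 250 bases lie at chr10:90921088-90921337, minus strand, with motifs of both kinds in capitals. They precede the RefSeq start, and those up to 90921276 lie inside the gene span given above, with the TEAD match nearer the start.
ANKRD1: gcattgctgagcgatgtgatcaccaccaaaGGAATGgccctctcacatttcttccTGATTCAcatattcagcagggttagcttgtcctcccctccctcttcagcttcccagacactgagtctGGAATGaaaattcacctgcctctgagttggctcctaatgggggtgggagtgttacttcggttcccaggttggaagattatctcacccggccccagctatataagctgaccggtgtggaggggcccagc

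AMOTL1, AMOTL2, AJUBA and LATS2 are Hippo components that act back on the pathway, and none of the 4 was called in either direction. AMOTL1 and AMOTL2 are angiomotin-like junction proteins that hold YAP outside the nucleus and promote its phosphorylation. AMOTL2 (ENSG00000114019, chromosome 3, 134355874 to 134375479, minus strand) had 11.6 FPKM from 1341 reads in the library labelled TRIP13 shRNA, against 6.13 FPKM from 711 reads in the control library. Its ratio was 1.89 (1.72 to 2.07) and its log2 ratio 0.82, above that of 10140 of 10671 genes but below the size rule. AMOTL1 (ENSG00000166025, chromosome 11, 94706431 to 94876753, plus strand) had 4.28 FPKM from 832 reads in the library labelled TRIP13 shRNA, against 5.16 FPKM from 1003 reads in the control library. Its ratio was 0.830 (0.756 to 0.910).

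The 2 paralogs thus leaned opposite ways. The within-library ratio of AMOTL1 to AMOTL2 was 0.370 in the library labelled TRIP13 shRNA, against 0.841 in the control library, 2.27-fold lower (1.99 to 2.59). The third family member, AMOT, had 0 reads in the library labelled TRIP13 shRNA, against 6 in the control library. Noncoding genes share 4.94% of the exon length of AMOTL1 and 0.836% of that of AJUBA. RPL39P5, a pseudogene inside AMOTL2 that covers 3.13% of its exon length, had 0 reads and 1 read.

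LATS2, a kinase that phosphorylates YAP directly, had 3.45 FPKM from 373 reads in the library labelled TRIP13 shRNA, against 3.81 FPKM from 412 reads in the control library (ENSG00000150457, chromosome 13, 20973032 to 21061547, minus strand). Its ratio of 0.905 had a counting interval of 0.785 to 1.04 that includes 1, and with own totals it was 0.858 (0.744 to 0.990). LATS1, its paralog, had 3.70 and 3.15 FPKM, and the ratio of LATS2 to LATS1 within a library was 0.934 and 1.21. AJUBA, a LIM domain scaffold that binds LATS kinases and limits their activity, had 2.85 FPKM from 330 reads in the library labelled TRIP13 shRNA, against 2.68 FPKM from 310 reads in the control library (ENSG00000129474, chromosome 14, 22971174 to 22982642, minus strand). Its ratio was 1.06 (0.909 to 1.25), and its log2 ratio of 0.07 lay below 0 under TPM and with the median ratio set to 1. Its relative LIMD1 had 5.11 and 6.42 FPKM, and WTIP had 39 and 33 reads.

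AMOTL2, AJUBA and LATS2 each held 1 TEAD motif in a window, and AMOTL1 held none. The AMOTL1 start searched, at 94768356, lies inside the gene span given above, so the annotated 5' end of that span was not searched. AMOTL2 and AJUBA have 2 RefSeq starts each, and in both genes the match lay at the start with the lower coordinate. The 30 bases around each match are shown because these are the only TEAD matches in the windows of these Hippo components. All are given on the minus strand of GRCh38.p14, at chr3:134374499-134374528 for AMOTL2, chr14:22976884-22976913 for AJUBA and chr13:21061560-21061589 for LATS2. The LATS2 match lies after the RefSeq start at 21061586, at positions 9 to 14, but before the 5' end of the gene span given above.
AMOTL2: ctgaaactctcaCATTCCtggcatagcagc
AJUBA: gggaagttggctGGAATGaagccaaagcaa
LATS2: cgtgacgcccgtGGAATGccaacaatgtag

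**Figure D3:**
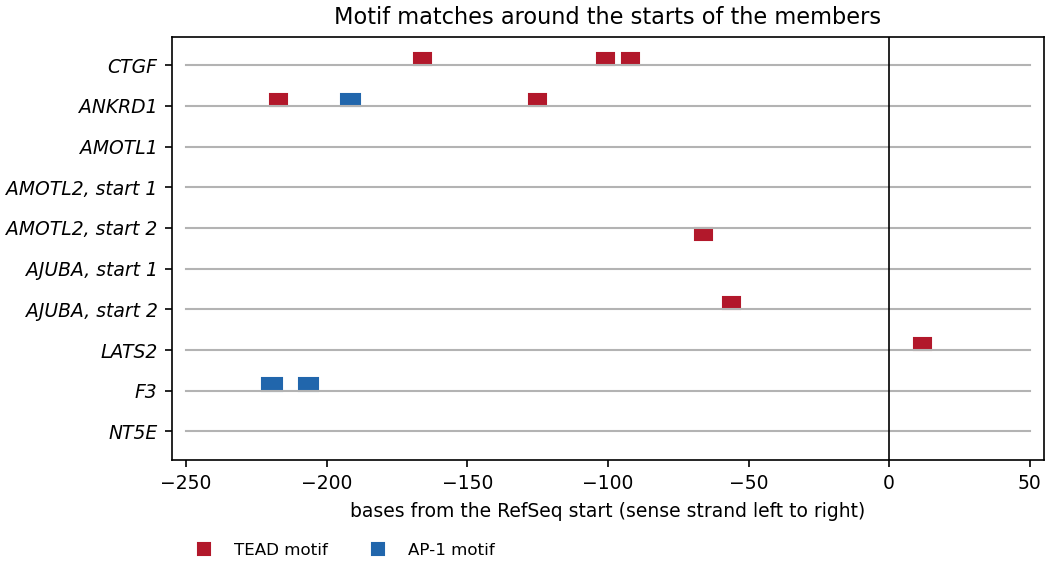
Positions of TEAD (red) and AP-1 (blue) motif matches from 250 bases before to 50 after each RefSeq start, with boxes above the line for the gene's own strand and below it for the other. CTGF holds 3 TEAD matches, ANKRD1 2 and F3 2 AP-1 matches, while NT5E and AMOTL1 hold neither.

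The cell surface members differed more. CRIM1 is a transmembrane protein with cysteine-rich repeats that binds bone morphogenetic proteins. CRIM1 (ENSG00000150938, chromosome 2, 36355926 to 36551135, plus strand) had 24.0 FPKM from 3311 reads in the library labelled TRIP13 shRNA, against 11.4 FPKM from 1567 reads in the control library. It was 2.11-fold higher (1.99 to 2.25), with a log2 ratio of 1.02. Of its exon length 2.49% is shared with the gene AC007378.1. FEZ2, a protein-coding gene on the opposite strand whose span overlaps CRIM1, had 1084 and 742 reads, and in the annotation its exons share no base with those of CRIM1. The call ends when each library is divided by its own total, under TPM, with the median ratio set to 1, with scaling that leaves out abundant genes and with a pseudocount of 5.

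F3 encodes tissue factor, the membrane receptor for factor VII that starts coagulation and that many glioblastomas carry. F3 (ENSG00000117525, chromosome 1, 94529225 to 94541800, minus strand) had 5.78 FPKM from 322 reads in the library labelled TRIP13 shRNA, against 15.4 FPKM from 859 reads in the control library. It was 2.67-fold lower (2.34 to 3.04), with a log2 ratio of -1.28. With a pseudocount of 5 the log2 ratios of F3 and CTGF were -0.92 and -0.90, and both calls end. Its window held no TEAD motif and is shown for its 2 AP-1 motifs, in capitals, at -223 to -217 and -210 to -204. The 250 bases before the start lie at chr1:94541760-94542009, minus strand, and the whole window was 77.3% G and C.
F3: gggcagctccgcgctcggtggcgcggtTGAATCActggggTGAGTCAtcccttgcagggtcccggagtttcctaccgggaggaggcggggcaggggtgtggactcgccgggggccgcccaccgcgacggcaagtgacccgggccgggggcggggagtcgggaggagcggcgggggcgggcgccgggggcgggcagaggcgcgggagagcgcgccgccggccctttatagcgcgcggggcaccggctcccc

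NT5E, the gene of CD73, had the lowest log2 ratio of the members and by far the highest level. NT5E (ENSG00000135318, chromosome 6, 85449584 to 85495791, plus strand) had 79.3 FPKM from 6968 reads in the library labelled TRIP13 shRNA, against 230 FPKM from 20174 reads in the control library. It was 2.90-fold lower (2.82 to 2.98), with a log2 ratio of -1.52, and 161 genes had a lower one. Scaled to its own library's reads (RPM) it stood at 350 RPM in the library labelled TRIP13 shRNA, against 1069 RPM in the control library. It ranked 97 of 10671 genes in the control library and was still at rank 468 in the library labelled TRIP13 shRNA. Within a library NT5E exceeded CRIM1 3.31 times in the library labelled TRIP13 shRNA, against 20.2 times in the control library. The NT5E window is shown because the most abundant member held neither motif. The RefSeq start of NT5E, at 85450083, and its whole window lie inside the gene span given above. The annotated 5' end of that span was thus not searched. The 250 bases before the start lie at chr6:85449833-85450082, plus strand, in a window of 75.0% G and C.
NT5E: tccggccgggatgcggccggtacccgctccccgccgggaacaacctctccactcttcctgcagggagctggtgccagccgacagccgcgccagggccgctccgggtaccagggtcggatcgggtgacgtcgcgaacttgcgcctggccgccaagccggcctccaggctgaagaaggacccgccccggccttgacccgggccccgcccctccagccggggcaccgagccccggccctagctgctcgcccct

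The order of levels per length differed between the libraries. In the library labelled TRIP13 shRNA it ran NT5E, CRIM1, CYR61, AMOTL2, F3, AMOTL1, CTGF, LATS2, AJUBA, ANKRD1, and in the control library NT5E, F3, CTGF, CRIM1, CYR61, AMOTL2, AMOTL1, LATS2, AJUBA, ANKRD1. F3 and CTGF thus stood in the second and the third place in the control library and the fifth and the seventh in the library labelled TRIP13 shRNA. Without F3 and CTGF, the other 8 members kept the same order in both. Counting intervals of neighbours overlapped for AMOTL1 with CTGF, CTGF with LATS2 and LATS2 with AJUBA in the library labelled TRIP13 shRNA, and for CTGF with CRIM1 and CRIM1 with CYR61 in the control library.

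The genes next to the members on their chromosomes were compared as well. Of 20 nearest tested protein-coding neighbours, 1 on each side of every member, 1 was called lower and 0 higher, with a median log2 ratio of 0.15. The 1 gene was MOXD1, which lies 345 kb from CTGF and had 6.86 FPKM in the library labelled TRIP13 shRNA, against 15.0 FPKM in the control library. On the other side of CTGF, ENPP1, which cleaves extracellular ATP to AMP, had 1.81 and 2.90 FPKM. CNN3 next to F3 had 6.60 and 12.8 FPKM, a log2 ratio of -0.86, while ABCD3 on its other side had 5.09 and 3.90. The NT5E neighbours TBX18 and SNX14 had log2 ratios of 0.31 and -0.20.

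Lists of related genes were described in the same way, beside the median of 0.12 and the called shares of 4.19% lower and 2.17% higher over all tested genes. Among other reported YAP and TAZ targets, of 14 genes listed, 11 passed the FPKM minimum, and 0 were called in either direction. Their median log2 ratio was 0.18, with 7 above 0 and 4 below. AXL, a receptor tyrosine kinase, had 78.5 FPKM in the library labelled TRIP13 shRNA, against 43.3 FPKM in the control library, and TGFB2, a TGF-beta ligand, had 5.46 and 3.48. MYOF, a membrane repair protein of the ferlin family, had 64.1 and 46.2 FPKM. At the other end IGFBP3, which binds insulin-like growth factors, had 5.86 and 8.51 FPKM.

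**Figure D4:**
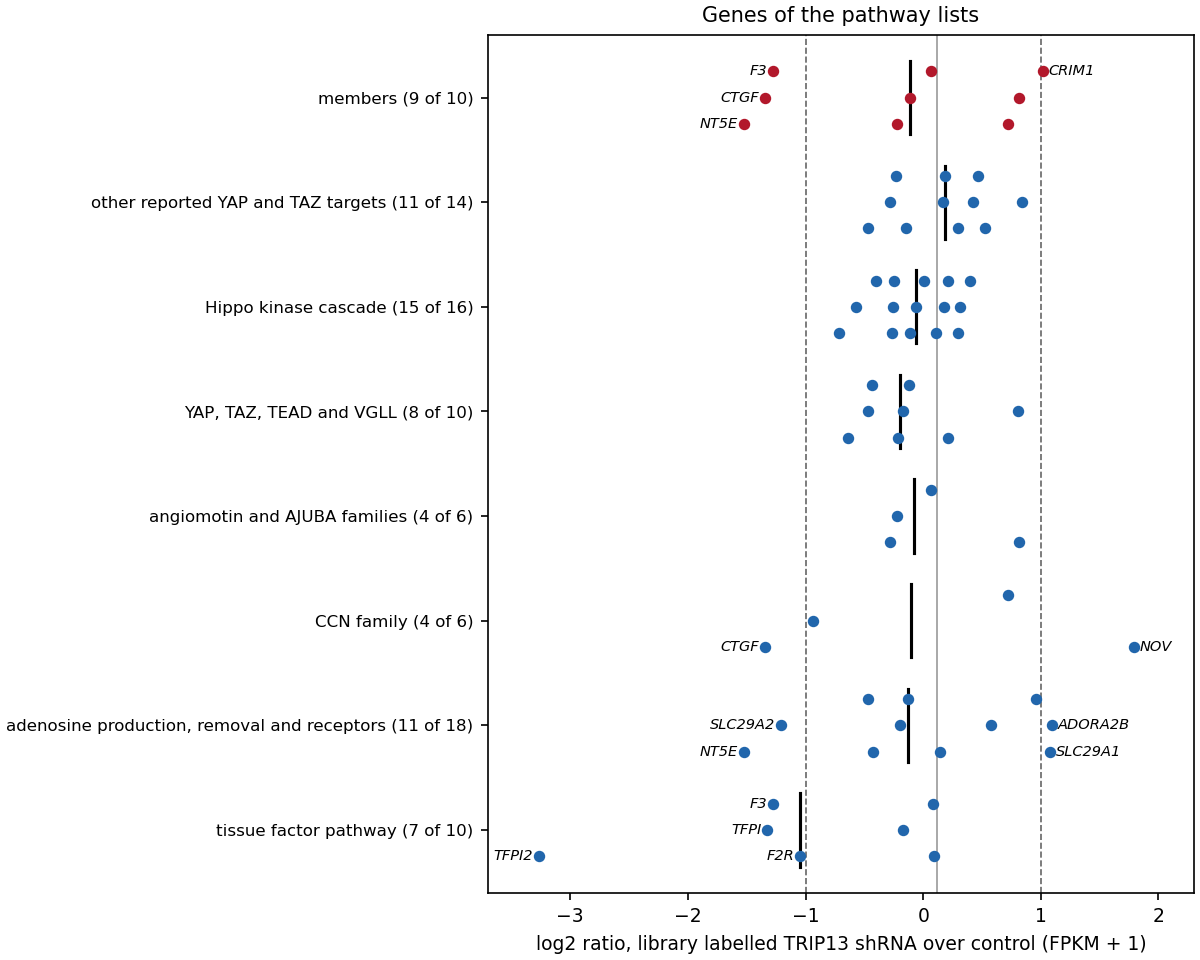
Log2 ratios of the genes past the FPKM minimum in each pathway list (numbers past the minimum and listed in brackets), with genes past the dashed lines at -1 and 1 named, black bars at list medians, and the grey line at the median of all tested genes; height within a row only separates points. The members and the other lists share CTGF, CYR61, LATS2, AMOTL1, AMOTL2, AJUBA, NT5E and F3, so these appear more than once.

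No gene that carries the signal to these targets was called. Of 10 YAP, TAZ, TEAD and VGLL genes 8 passed the minimum, with a median log2 ratio of -0.20. YAP1 had 16.0 FPKM in the library labelled TRIP13 shRNA, against 18.8 FPKM in the control library, a ratio of 0.853 (0.803 to 0.907). WWTR1 had 7.51 and 8.27 FPKM, and the ratio of YAP1 to WWTR1 within a library was 2.13 and 2.27. The TEAD genes leaned different ways. TEAD1 had 3374 and 3834 reads, TEAD2 had 1.90 and 3.01 FPKM, and TEAD3 had 2.74 and 4.84 FPKM. TEAD4 was the exception at 14.3 and 7.79 FPKM, a ratio of 1.84 (1.61 to 2.10). The within-library ratio of TEAD4 to TEAD1 was 0.846 in the library labelled TRIP13 shRNA, against 0.405 in the control library. VGLL4, a TEAD cofactor that competes with YAP, had 8.54 and 7.24 FPKM.

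Of 16 Hippo kinase cascade genes 15 passed the minimum and 0 were called, with a median of -0.07. STK4 and STK3, the MST kinases, had ratios of 1.08 (1.02 to 1.15) and 1.01 (0.886 to 1.15), and the log2 ratio turned below 0 in 1 alternative setting for STK4 and in 4 of 8 for STK3. SAV1, the scaffold that joins MST to LATS, had 2.42 FPKM in the library labelled TRIP13 shRNA, against 4.63 FPKM in the control library, the lowest log2 ratio of the list at -0.72. The LATS cofactors MOB1A and MOB1B had 32.8 and 5.01 FPKM in the library labelled TRIP13 shRNA, against 24.6 and 6.95 FPKM in the control library.

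Within the CCN family the secreted members spread widely. NOV, which shares the domain plan of CTGF and CYR61, had 63.2 FPKM in the library labelled TRIP13 shRNA, against 17.6 FPKM in the control library, 3.60-fold higher (3.34 to 3.87). It was the 1 CCN gene called higher, CTGF was the 1 called lower, and 4 of 6 passed the minimum. WISP2 had 0.466 and 1.81 FPKM, a log2 ratio of -0.94 that passed -1 in 4 of 8 alternative settings and reached -1.85 with 5 reads added, and WISP1, below the minimum, had 27 and 118 reads. The within-library ratio of CTGF to NOV was 0.0659 and 0.691.

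Around CD73 the adenosine genes went both ways. Of 18 listed genes 11 passed the minimum, with NT5E and SLC29A2 called lower and ADORA2B and SLC29A1 called higher, and a median log2 ratio of -0.13. Except for NT5E these calls end with a pseudocount of 5, and the higher ones also end with the median ratio set to 1. ADORA2B, a low-affinity adenosine receptor, had 29.2 FPKM in the library labelled TRIP13 shRNA, against 13.1 FPKM in the control library, 2.22-fold higher (2.02 to 2.44). The equilibrative nucleoside transporter SLC29A1 had 13.4 and 5.79 FPKM, and its relative SLC29A2 had 1.40 and 4.55. PNP, the purine nucleoside phosphorylase, had 9.72 and 4.51 FPKM, and ADK, the adenosine kinase, had 16.5 and 10.8. ENTPD1 (CD39), which makes the AMP that CD73 uses, was low at 1.18 and 0.976 FPKM, a ratio of 1.21 (0.957 to 1.54). ADORA2A had 2 and 30 reads, and ADORA3 had 0 and 1. DPP4, which holds adenosine deaminase at the cell surface, had 11.9 and 13.8 FPKM, and ADA itself 6.17 and 6.84.

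Around tissue factor 7 of 10 listed genes passed the minimum, and 4 were called lower and 0 higher, with a median log2 ratio of -1.05. The member F3 is itself on this list and is 1 of the 4. TFPI2, a secreted protease inhibitor, had 178 FPKM from 9261 reads in the library labelled TRIP13 shRNA, against 1724 FPKM from 89610 reads in the control library, 9.68-fold lower (9.47 to 9.89). TFPI, the inhibitor of the tissue factor complex with factor VIIa, had 4.63 and 13.1 FPKM, 2.84-fold lower (2.64 to 3.05). The ratio of F3 to TFPI within a library was 1.25 and 1.17, a ratio of ratios of 1.06 (0.916 to 1.23). F2R, the thrombin receptor PAR1, had 8.76 and 19.1 FPKM, with a log2 ratio of -1.05. With a pseudocount of 5, TFPI2 alone of the 4 stays called. F2RL1 (PAR2) had 6.02 and 6.93 FPKM, THBD (thrombomodulin) 6.27 and 5.80, and PROCR 40.4 and 38.2. F7 and F10, the ligand and substrate of tissue factor, had 8 and 13 reads in the library labelled TRIP13 shRNA, against 2 and 19 reads in the control library.

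**Figure D5:**
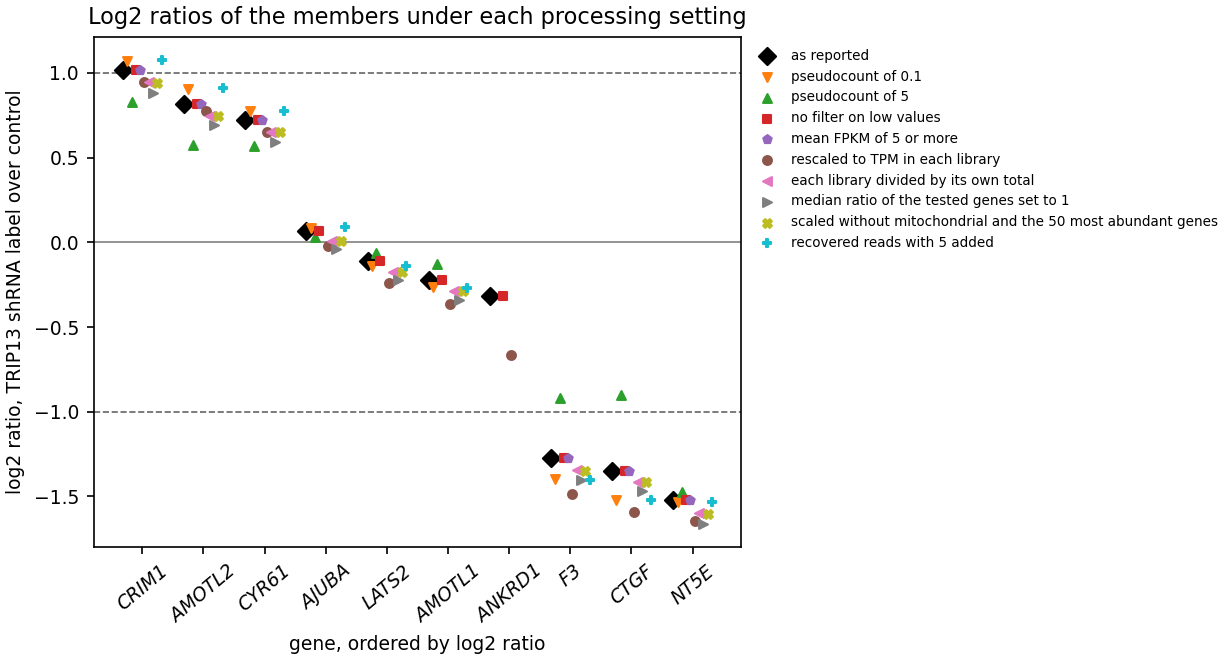
Log2 ratio of each member (library labelled TRIP13 shRNA over control) as reported (black diamonds) and under each of 9 alternative settings, with dashed lines at -1 and 1; a setting whose minimum drops a member has no point for it. The points of CTGF and F3 lie above -1 with a pseudocount of 5 alone, and those of CRIM1 straddle 1.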

How the data were processed

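RNA was sequenced from 2 libraries of U87MG glioma spheres, 1 per group. The authors deposited FPKM values for 58735 genes. Per the submitters' processing notes, build hg38, edgeR, featureCounts 1.5.0-p3 and HISAT2 2.0.5 were used, without stated roles or settings, and the strand setting is not given in the sources used here. Without strand, reads of overlapping or antisense genes could be shared. Gene lengths of 10 of 10 members equalled the exon unions of GENCODE 29.

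FPKM multiplied by gene length gave whole multiples of 1 step for 100% of values (tolerance 0.001 of a read), which recovered the reads. Both libraries were divided by a common total, so FPKM ratios carry the depth ratio of 1.055 (log2 0.08). In a 1 kb gene 3 reads equal 0.155 FPKM. Log2 ratios used a pseudocount of 1, which understates differences of weakly expressed genes, and protein-coding genes whose FPKM averaged at least 1. Intervals of 95% (Clopper-Pearson for ratios, Poisson for levels) cover counting error only, because each group held 1 library. PCR copies of a molecule may be counted as separate reads, which would make even these intervals too narrow. Calculations were tested on simulated data. With 1 library per group no model was fitted.

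The members, 12 further lists and all rules were chosen with earlier results of these data known. Named were all members, TRIP13, core pathway genes and up to 4 genes past the FPKM minimum at each end of other lists. SRF, MRTFA, F7, F10 and cell type markers below the minimum were named outside this rule. Genes next to members were named by position, some after their values were seen. The older symbols MKL1 and MKL2 were matched to MRTFA and MRTFB through RefSeq synonyms, and CTGF to CCN2. Alternative settings, for list genes other than the members added after the data were seen, were 2 other pseudocounts, 2 other filters, 4 scalings and recovered reads with 5 added. The software was matplotlib 3.10.9, pandas 2.3.3, numpy 2.4.6 and scipy 1.17.1 under Python 3.11.15.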

Additional observations from a re-analysis of the deposited data

How the results depend on the processing

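No paired analysis was possible because there is only 1 library per shRNA. A pseudocount of 5 left 1 member called lower (NT5E) and 0 higher, since CTGF stood at -0.90 and F3 at -0.92. The other 8 settings kept 3 called lower. Called higher was 0, not 1, with TPM, with own totals, with the median ratio set to 1, and with scaling that left out mitochondrial and the 50 most abundant genes. The members' median log2 ratio was -0.28 over the 6 members whose FPKM averaged at least 5, and -0.30 over 10 members under TPM, where ANKRD1 also passed. TPM and the median ratio of 1 shifted the median of all genes by -0.12 each. NT5E stayed between -1.66 and -1.48, and 9 of 10 members, AJUBA excepted, kept their sign in every setting that held them. Among the other list genes, in settings added after the data were seen, the values of PROCR, THBD and STK3 near 0 lay below 0 under TPM and with the median ratio set to 1, that of STK4 with the median ratio set to 1 alone, and that of STK3 also with own totals and with scaling without abundant genes, while the calls of TFPI2, NOV and FHL2 held in every setting. The cause was not tested. Depth limits ANKRD1 most, at 15 and 28 reads.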

Other observations

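The actin-linked targets of SRF and its MRTF cofactors are a second program that responds to cell tension and overlaps the YAP targets. They were listed together with the regulators SRF, MRTFA and MRTFB, and the list was spread around 0. Of 15 listed genes 14 passed the FPKM minimum, 1 was called higher and 0 lower, and the median log2 ratio was 0.06. FHL2, a LIM-only protein, was the called gene at 43.9 FPKM in the library labelled TRIP13 shRNA, against 15.9 FPKM in the control library, 2.77-fold higher (2.63 to 2.92). TPM1, a tropomyosin, had 21.4 and 13.5 FPKM. At the other end, the cofactor MRTFB had 2.69 and 5.53 FPKM, a log2 ratio of -0.82 that passed -1 in 3 of 8 alternative settings, with -1.08 under TPM. The myosin light chain MYL9 had 27.8 and 38.1 FPKM, and the smooth muscle protein TAGLN 1.38 and 2.02. SRF itself had 13.9 and 11.5 FPKM.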
